A study of Mus musculus with 18 samples.

Results

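Long noncoding RNAs are transcripts, often spliced and polyadenylated, that carry no protein. Outside the imprinted Dlk1-Dio3 cluster, 10 of them were followed here: Neat1, Malat1, Gas5, Snhg1, Snhg12, Mir17hg, Mir22hg, Mir99ahg, Dnm3os and Dubr. They were chosen by symbol, with earlier results of these data known, and found as 10 of the 55450 gene IDs in the deposited count table. All 10 were among the 17912 genes that passed the filter on low counts. The cells were C2C12, a mouse myoblast line that fuses into multinucleated myotubes when serum is reduced. The study made C2C12 lines with deletions at the Meg3 promoter to change the dosage of the Dlk1-Dio3 noncoding RNAs, and sequenced polyA RNA from each line at both stages.

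There were 6 groups of 3 libraries, labelled A, B and C. The control was a population of cells given only the pX458 vector, which carries Cas9 and EGFP but no guide to Meg3, and sorted for EGFP 72 h later. The line 2-4, labelled Dlk1-Dio3 overexpressor, and the line 2-7, labelled Dlk1-Dio3 knockout, were each 1 clone, expanded from a single cell after transfection with pairs of guides to the Meg3 proximal regulatory region. Genotype and clone therefore cannot be told apart, and the controls are a population where the others are clones. Myoblasts of each line were kept in medium with 10% fetal bovine serum, and myotubes were taken on day 3 in medium with 2% horse serum. Nothing in the labels says that A, B and C came from separate cultures, so the p-values measure the spread between these libraries, which may be technical.

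The listed RNAs do different things. Neat1 and Malat1 stay in the nucleus, where Neat1 is the scaffold of paraspeckles and Malat1 gathers in nuclear speckles beside splicing factors. Gas5, Snhg1 and Snhg12 are hosts whose introns are cut into small nucleolar RNAs (snoRNAs), the guides of ribosomal RNA modification, while their spliced exons are short-lived in the cytoplasm. Mir17hg, Mir22hg, Mir99ahg and Dnm3os are the primary transcripts of microRNAs. Dubr is a chromatin-associated RNA known from myogenesis, where it was described together with Dppa2. In the annotation used here the coding genes nearest to Dubr are Ccdc54 and Cblb, not Dppa2. In a polyA library the count of a host does not measure its mature microRNAs or snoRNAs.

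The mature microRNAs carried by the hosts are shown because they are what each host is known for. The RefSeq table of GRCm38.p6 held 23 mature sequences in the 4 hosts, of which 12 are printed 5′ to 3′ from the plus strand, with the seed (bases 2 to 8) in capitals. From Mir17hg, an exonic cluster on chromosome 14, miR-17-5p and miR-20a-5p share the seed AAAGUGC, and miR-19a-3p and miR-19b-3p share GUGCAAA.
miR-17-5p (chr14:115043684-115043706): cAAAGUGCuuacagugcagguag
miR-20a-5p (chr14:115044183-115044205): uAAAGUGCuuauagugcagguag
miR-19a-3p (chr14:115044048-115044070): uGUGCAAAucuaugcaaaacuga
miR-19b-3p (chr14:115044358-115044380): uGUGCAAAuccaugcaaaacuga
miR-18a-5p (chr14:115043867-115043889): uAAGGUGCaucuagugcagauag
miR-92a-3p (chr14:115044476-115044496): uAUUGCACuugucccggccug
MiR-22 lies in an exon of Mir22hg on chromosome 11, and miR-99a, let-7c and miR-125b lie in introns of Mir99ahg on chromosome 16. Both microRNAs of Dnm3os, miR-199a and miR-214, lie within its exonic sequence on chromosome 1. No seed was shared among these 3 hosts.
miR-22-3p (chr11:75463772-75463793): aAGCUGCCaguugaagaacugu
miR-99a-5p (chr16:77598940-77598961): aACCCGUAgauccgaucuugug
let-7c-5p (chr16:77599672-77599693): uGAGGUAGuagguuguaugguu
miR-125b-5p (chr16:77646279-77646300): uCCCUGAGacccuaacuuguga
miR-199a-3p (chr1:162217883-162217904): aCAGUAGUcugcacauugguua
miR-214-3p (chr1:162223438-162223459): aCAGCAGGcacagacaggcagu

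Each library held 41544358 to 79140702 counts, and the 10 RNAs had between 29 counts (Mir17hg) and 23063 counts (Malat1) in a library. Meg3 itself had 0 counts in every control and knockout library and 5222 to 7763 counts in the overexpressor libraries, so it checks the label of the overexpressor and does not separate knockout from control. Summed over 9 muscle markers, levels in CPM (counts scaled to library size with TMM factors) were 1352 to 1576 in control myoblasts. Myoblasts of the overexpressor had 2644 to 3365 and those of the knockout 12167 to 15111. In myotubes they were 15877 to 16409 in the control, 25965 to 29194 for the overexpressor and 36814 to 44979.8 for the knockout. By this sum, the myoblasts labelled knockout were near the level of control myotubes, just below them. The most abundant markers weigh most in such a sum, so it does not show how each of the 9 stood. These levels stand beside every comparison of a clone with the control. Of 3 neural markers Rbfox3 was at 0 in control libraries, and the summed level of the 3 was 40.1 to 49.4 CPM in control myoblasts, 175 to 204 in those of the overexpressor and 3.64 to 3.88 in those of the knockout. Summed over 3 chondrocyte markers, levels were 86.6 to 103 CPM in control, 176 to 189.8 in overexpressor and 110.2 to 123 in knockout myoblasts, and 46.3 to 74.7 in myotubes, with Acan at 0 in every control library. Over 4 osteoblast markers they were 2.81 to 3.63 CPM in control, 1.18 to 1.6 in overexpressor and 8.67 to 10.9 in knockout myoblasts, with Ibsp at 0 in all of these, and 1.01 to 1.52, 2.86 to 3.79 and 6.52 to 7.96 in myotubes in the same order. Adipocyte, endothelial, epithelial and leukocyte markers summed to at most 2.34 CPM in any library. The part of these markers in the results was not tested.

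Some libraries stood apart in these RNAs. Among control myoblasts, library A held the highest value of 9 of the 10, and its median log2 difference from the other libraries of the group was 0.52. Overexpressor myoblasts A held the lowest value of 9 (-0.46) and B the highest of 7 (0.45). Control myotubes C held the highest of 8 (0.30). Overexpressor myotubes C and knockout myotubes A each held the highest of all 10 (0.62 and 0.61), and knockout myotubes C the lowest of 9 (-0.34). Over all genes tested the same medians were within 0.03 of 0, and over 1563 other long noncoding RNA genes within 0.12. Other snoRNA hosts and nuclear speckle protein genes, listed further on, deviated more: in knockout myotubes their medians were 0.31 and 0.16 in library A and -0.17 and -0.22 in library C. Overexpressor myotubes C also differed most from its group by counts over all genes, with chi-square per degree of freedom of 115 and 109.9 against 22.2 for A with B. Among overexpressor myoblasts library B differed most by this measure, with 35.0 and 31.0 against 8.02 for A with C. The part these libraries have in the results was not tested as a cause, and where leaving out any 1 library changed a call, its value stands beside the result.

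**Figure D1:**
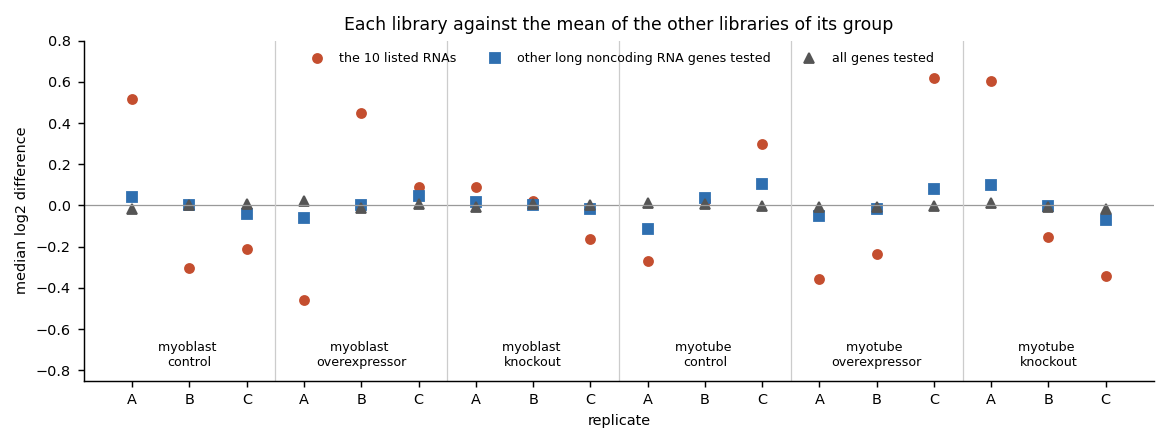
Median log2 difference (y axis) of each library (x axis, replicates A to C in each group) from the mean of the other libraries of its group, for the 10 listed RNAs (circles), 1563 other long noncoding RNA genes (squares) and all genes tested (triangles). The circles range from -0.46 to 0.62, while the triangles stay near 0.

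**Figure D2:**
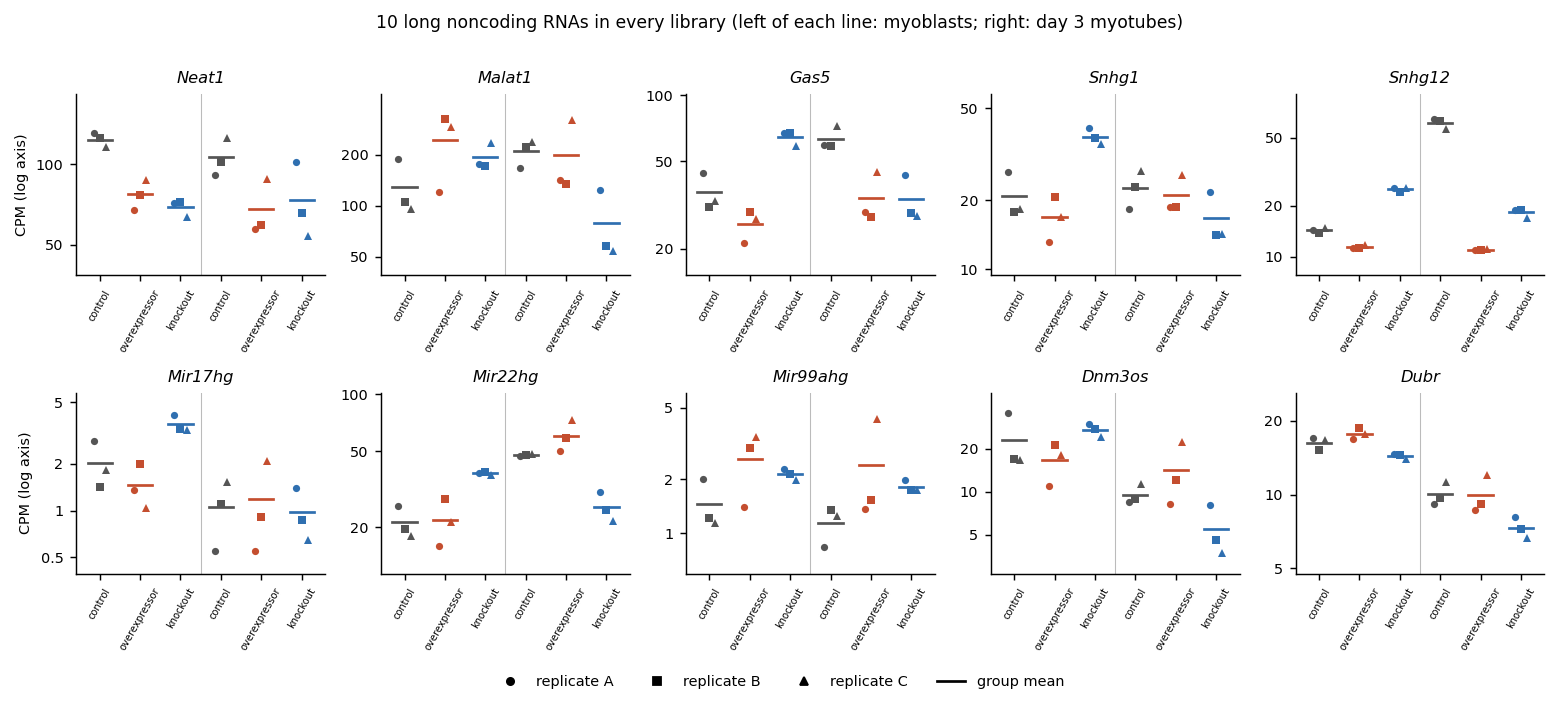
CPM on log axes for each of the 10 RNAs in every library, with replicate letters as point shapes, lines at the group means and myotubes to the right of each vertical line. Snhg12 points sit close together within every group, and Malat1, Mir17hg and Mir99ahg points spread widely.

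On a scale that also divides by exonic length (RPKM, mean over the 18 libraries), Malat1 was the most abundant at 25.2, followed by Mir22hg at 18.6, Gas5 at 11.4, Snhg12 at 9.79, Snhg1 at 7.62 and Neat1 at 4.16. Dubr was at 2.7, Dnm3os at 2.02, Mir17hg at 0.486 and Mir99ahg at 0.135 RPKM. The exonic lengths of Gas5, Snhg1 and Snhg12 include retained introns, which lowers their RPKM. For Neat1 the length used, 20771 bases, is that of its long form, while its short polyadenylated form has 3004 bases. The counts do not separate the forms, so the place of Neat1 in this order, and with it that of Malat1, depends on the length used. Spread within groups also set them apart: the median coefficient of variation over the 6 groups was 2.91% for Snhg12 and 8.01% for Dubr, and 42.3% for Malat1.

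Among myoblasts, Neat1 was lower in both clones than in the control, and the 3 snoRNA hosts and Mir22hg were higher in the knockout. The Neat1 call in the overexpressor was lost on leaving out some single libraries, as given below. With edgeR's quasi-likelihood test and a Benjamini-Hochberg adjusted p under 0.05 over all genes tested, 2 of the 10 RNAs (Neat1 and Snhg12, both lower) passed in overexpressor myoblasts, where 40.4% of all genes did and 19.7% were called lower. In knockout myoblasts 5 passed, with Gas5, Snhg1, Snhg12 and Mir22hg higher and Neat1 lower, against 53.0% of all genes. Median log2 fold changes of the 10 were -0.31 (overexpressor) and 0.69 (knockout), beside 0.02 and 0.02 over all genes. These are bulk libraries, in which fewer cells that express an RNA and less RNA per cell cannot be told apart. Between the clones, 6 passed (Dubr higher, and Gas5, Snhg1, Snhg12, Mir17hg and Mir22hg lower, in the overexpressor) against 52.6% of all genes.

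In myotubes, Neat1, Gas5 and Snhg12 were lower in both clones than in the control. Overexpressor myotubes had 4 of the 10 past the test (these 3 lower and Mir99ahg higher), against 57.1% of all genes. The Neat1 calls in both clones, and that of Mir99ahg, were lost in several of the alternative fits given below. Knockout myotubes had 6, all lower (Neat1, Malat1, Gas5, Snhg12, Mir22hg and Dubr), against 68.0% of all genes in either direction and 37.0% lower. The 10 had medians of -0.05 (overexpressor) and -0.66 (knockout), beside -0.04 and -0.07 over all genes. Between the clones 5 passed, with Malat1, Mir22hg, Dnm3os and Dubr higher and Snhg12 lower in the overexpressor, against 59.7% of all genes. Both clones were compared with the same control libraries at each stage, so the comparisons are not independent of each other. The share of the 10 that passed was near that of all genes in knockout myoblasts and in both comparisons between the clones, and lower than that of all genes in the overexpressor. With 10 RNAs chosen by name, and with earlier results of these data known, these shares only describe the list.

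**Figure D3:**
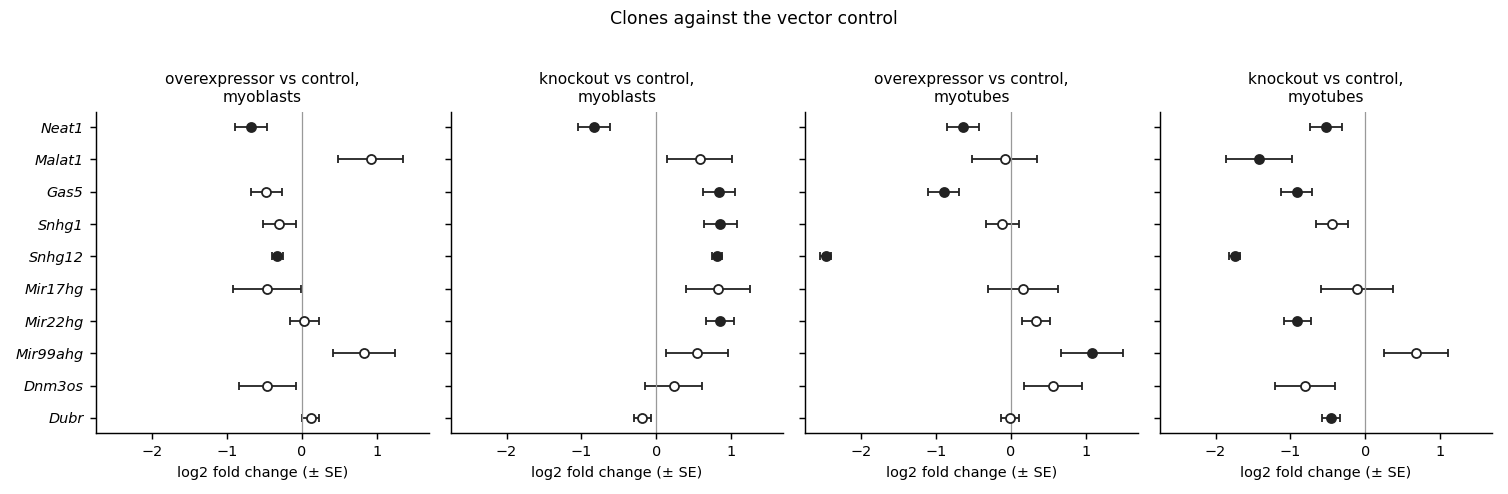
Log2 fold change (x axis, ± SE from the edgeR fit) of each RNA in each clone against the vector control, for myoblasts (left pair of panels) and myotubes (right pair), with filled circles for adjusted p under 0.05. Snhg12 changed from higher in knockout myoblasts (0.81) to lower in knockout myotubes (-1.74).

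Differentiation lowered Dubr in all 3 lines and raised Mir22hg in the control and the overexpressor. In the control, 5 of the 10 passed between myotubes and myoblasts (Gas5, Snhg12 and Mir22hg higher, Dnm3os and Dubr lower), against 62.8% of all genes. In the overexpressor 2 passed (Mir22hg higher and Dubr lower), against 62.8% of all genes. In the knockout 8 passed and all 8 were lower in myotubes, against 65.4% of all genes in either direction and 35.6% lower. Neat1 (0.09) and Mir99ahg (-0.23) were the 2 that did not pass. The median of the 10 was -0.05 in the control, -0.14 for the overexpressor and -0.96 for the knockout, beside 0.07, -0.02 and -0.08 over all genes. Of the 1563 other long noncoding RNA genes tested, 415 were higher and 319 lower in knockout myotubes.

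The differences between these responses were tested as interactions. The response of the overexpressor differed from that of the control for Snhg12 alone among the 10, against 39.0% of all genes and 22.3% lower. In the knockout it differed for 5 (Malat1, Gas5, Snhg1, Snhg12 and Mir22hg), all lower than in the control, against 50.1% of all genes and 29.9% lower. Both interactions share the control libraries. Scaled by library totals in place of TMM factors, the median of all genes moved from 0.07 to -0.17 in the control response and from -0.08 to -0.24 in the knockout response, and the values here are to be read relative to such shifts.

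**Figure D4:**
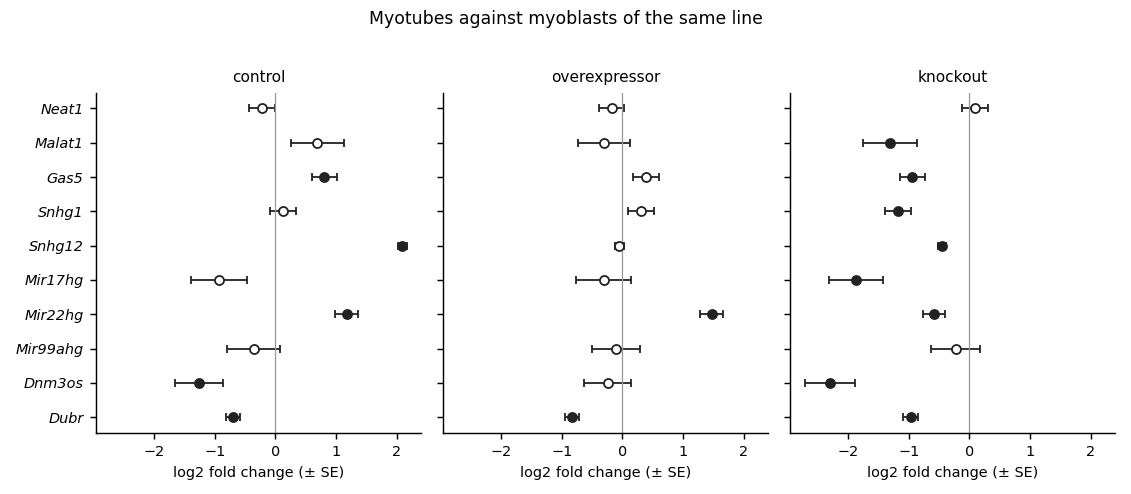
Log2 fold change (x axis, ± SE from the edgeR fit) of each RNA between day 3 myotubes and myoblasts within the control, overexpressor and knockout lines, with filled circles for adjusted p under 0.05. Snhg12 rose by 2.10 in the control and fell in the knockout (-0.46), and 8 circles are filled and below 0 in the knockout panel.

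Neat1 (chr19:5824708-5845478, minus strand, GRCm38, GENCODE M21 annotation) makes a short polyadenylated isoform and a long one that builds paraspeckles, and its row counts both. Control myoblasts had 130.2, 125 and 115 CPM in libraries A, B and C, overexpressor myoblasts 67.7, 77.0 and 86.9, and knockout myoblasts 71.9, 72.4 and 63.5. Every control library was above every library of either clone. Neat1 was lower in overexpressor myoblasts by 1.60-fold (log2 fold change -0.68 ± 0.21 SE, edgeR adjusted p = 0.0184) and in knockout myoblasts by 1.78-fold (log2 fold change -0.83 ± 0.21 SE, edgeR adjusted p = 0.00384). The first of these calls was lost without control A (adjusted p = 0.0535), overexpressor A (0.0743) or overexpressor B (0.0517).

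Among myotubes, Neat1 stood at 91.0, 102 and 126 CPM in the control, 57.2, 59.3 and 88.0 for the overexpressor and 102, 65.5 and 53.9 for the knockout. Control and overexpressor did not overlap, whereas knockout A was above control A. Neat1 was lower in overexpressor myotubes by 1.56-fold (log2 fold change -0.64 ± 0.21 SE, edgeR adjusted p = 0.0175) and in knockout myotubes by 1.44-fold (log2 fold change -0.52 ± 0.21 SE, edgeR adjusted p = 0.0388). Both calls were close to the threshold. The overexpressor call was lost without control C (adjusted p = 0.0820), overexpressor A (0.0775) or overexpressor B (0.0698), with library totals (0.0666), without the filter on low counts (0.0563) and with only the groups compared in the fit (0.0539). The knockout call was lost without control B (0.0582), control C (0.158), knockout B (0.123) or knockout C (0.173), with library totals (0.0699) and with DESeq2 size factors (0.0826). It was also lost without the filter (0.0926), with only these groups fitted (0.0619) and with A, B and C fitted as a block (0.0552). Between myotubes and myoblasts, Neat1 differed by -0.22 ± 0.21 SE (edgeR adjusted p = 0.384) in the control, -0.18 ± 0.21 SE (edgeR adjusted p = 0.479) for the overexpressor and 0.09 ± 0.21 SE (edgeR adjusted p = 0.722) for the knockout. With only the control groups fitted, the first of these passed (adjusted p = 0.0475). In the order of mean levels, control myoblasts and control myotubes came first and overlapped, and the 4 clone groups followed and overlapped with each other in turn. Of the clone groups, knockout myotubes overlapped control myotubes, through library A.

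Across the 18 libraries Ndnf, a secreted factor gene, had the pattern most like that of Neat1 (Pearson r = 0.902 on log2 CPM), followed by Unkl (r = 0.898). Here and below, the listed RNAs were left out of the search, so they were not compared with each other. Ndnf was scarce, at 0.541 ± 0.105 CPM (mean ± SD, n = 3) in control myoblasts and 0.360 ± 0.246 in control myotubes. The highest mean of any clone group was 0.0341, below the CPM of 3 counts in every library (0.0375 to 0.0693). Its r thus mainly sets the control libraries against clone libraries with few or no counts. The coding neighbour Frmd8, 4223 bases away on the same strand, was at 102 ± 2.63 CPM in control myoblasts and 47.1 ± 4.26 in control myotubes, where Neat1 showed no called change.

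How Neat1 and Malat1 enter a polyA library depends on their 3′ ends, which are printed 5′ to 3′ from the transcript sequences of GENCODE M21. The long Neat1 isoform and Malat1 have no polyA tail of the usual kind, since RNase P cuts them and a triple helix covers the end, but both carry an encoded A-rich stretch (capitals). The short Neat1 isoform ends after a polyadenylation hexamer (capitals).
Malat1-201 (chr19:5795982-5796061, minus strand): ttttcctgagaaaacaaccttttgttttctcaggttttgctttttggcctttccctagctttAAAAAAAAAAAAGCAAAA
Neat1-201 (chr19:5824708-5824787, minus strand): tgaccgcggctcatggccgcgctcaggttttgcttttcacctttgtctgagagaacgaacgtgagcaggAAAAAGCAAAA
Neat1-202 (chr19:5842307-5842386, minus strand): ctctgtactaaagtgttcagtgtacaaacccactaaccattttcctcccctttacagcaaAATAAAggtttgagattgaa
The Malat1 stretch lies 292 bases before the annotated end of Malat1-201. A level of either RNA here is the level captured with polyA RNA, which need not be its whole level in the cell.

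Malat1 (chr19:5795690-5802672, minus strand) had the highest mean CPM of the 10 in every group, with wide spread between replicates. Levels in myoblasts were 189, 105 and 95.6 CPM in the control, 120.1, 327 and 291 for the overexpressor and 177, 171 and 235 for the knockout. The groups overlapped, with control A and overexpressor A on the far side of their own groups. The differences from the control did not pass, at 0.92 ± 0.44 SE (edgeR adjusted p = 0.113) on the log2 scale for the overexpressor and 0.58 ± 0.44 SE (edgeR adjusted p = 0.285) for the knockout. Without overexpressor A the first became 1.25, adjusted p = 0.0342.

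Control myotubes had 167, 224 and 239 CPM of Malat1, overexpressor myotubes 142, 134 and 320.4 and knockout myotubes 124, 57.4 and 54.2. The knockout libraries were below all myotube libraries of the other lines. Malat1 was lower in knockout than in control myotubes by 2.67-fold (log2 fold change -1.42 ± 0.44 SE, edgeR adjusted p = 0.0110), a call lost without knockout C (adjusted p = 0.0556). It was higher in overexpressor than in knockout myotubes by 2.53-fold (log2 fold change 1.34 ± 0.44 SE, edgeR adjusted p = 0.0176). This was lost without knockout B (0.0713), without knockout C (0.0816) and without overexpressor C, where the log2 fold change was 0.85, adjusted p = 0.124.

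On differentiation Malat1 fell in the knockout by 2.47-fold (log2 fold change -1.31 ± 0.44 SE, edgeR adjusted p = 0.0182), with all 3 myotube libraries below all 3 myoblast libraries. That call was lost without myoblast C (adjusted p = 0.0591), myotube B (0.0725) or myotube C (0.0825). The control difference was 0.69 ± 0.44 SE (edgeR adjusted p = 0.182) and the overexpressor difference -0.31 ± 0.43 SE (edgeR adjusted p = 0.560). The knockout response minus the control response was -2.0 ± 0.62 SE (edgeR adjusted p = 0.0155), a call kept with each single library left out. In the order of levels every pair of neighbouring groups overlapped. Dynlt3, a dynein light chain gene (r = 0.951), and Zfp930 (r = 0.926) had the patterns most like Malat1 over the 18 libraries.

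Genes for the proteins of both nuclear bodies were set beside their RNAs. Of 15 paraspeckle protein genes, 13 were lower and 1 higher in control myotubes than in myoblasts, 12 and 1 in the overexpressor, and 14 and 0 in the knockout, with medians of -0.50, -0.51 and -0.75 beside 0.07, -0.02 and -0.08 over all genes, of which 62.8%, 62.8% and 65.4% were called. Neat1 did not pass in any of these comparisons. The gene that rose in the control was Taf15, an RNA-binding protein gene, from 103 ± 8.02 to 205 ± 25.4 CPM (mean ± SD, n = 3), while it fell in the knockout from 108 ± 1.03 to 46.0 ± 8.06. In knockout myoblasts 6 of the 15 were lower and 0 higher than in the control (median -0.14 beside 0.02), a smaller share than the 53.0% of all genes called there. Of 14 nuclear speckle protein genes, 8 were lower and 0 higher in control myotubes than in myoblasts, and 12 lower and 0 higher in those of the knockout, against 62.8% and 65.4% of all genes called in either direction. Their medians were -0.52 and -0.74 beside 0.07 and -0.08 over all genes, and knockout myotubes A and C stood apart in these genes. The lowest in the knockout was Srsf1, a splicing activator (-1.49, edgeR adjusted p = 4.95e-06).

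Many snoRNA hosts begin transcription at a pyrimidine run, the mark of the terminal oligopyrimidine genes whose translation follows growth signals. The 60 bases around the start sites of the 3 hosts are shown for this reason, from the RefSeq promoter table of GRCm38.p6, in which 9 of the 10 symbols had an entry. Each runs 5′ to 3′ on the plus strand, and the unbroken run of C and T that covers the start base is in capitals.
Gas5 (chr1:161035136-161035195): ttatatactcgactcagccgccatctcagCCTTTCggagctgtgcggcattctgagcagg
Snhg1 (chr19:8723457-8723516): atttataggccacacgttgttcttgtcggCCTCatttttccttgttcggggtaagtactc
Snhg12 (chr4:132308648-132308707): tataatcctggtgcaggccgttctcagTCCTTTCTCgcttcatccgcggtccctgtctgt
The runs are 6, 4 and 9 bases long, of which 5, 3 and 6 bases lie from the annotated start onward and the rest before it. Of 32851 promoters in the table, 14.0% have a run of at least 4 bases over the start, 7.25% of at least 6 and 3.03% of at least 9. The other listed start of Gas5 has a run of 0 bases, as has the listed start of Zfas1, a further snoRNA host. A run is a description of the letters, and these data do not measure translation.

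Snhg12 (chr4:132308623-132311024, plus strand) hosts snoRNAs of both the H/ACA and the C/D class and had the tightest replicates of the 10. Control myoblasts had 14.3, 13.9 and 14.7 CPM, overexpressor myoblasts 11.3, 11.3 and 11.7 and knockout myoblasts 25.4, 24.2 and 25.5. No libraries of the 3 lines overlapped. Snhg12 was lower in overexpressor myoblasts by 1.25-fold (log2 fold change -0.33 ± 0.07 SE, edgeR adjusted p = 0.00101) and higher in knockout myoblasts by 1.75-fold (log2 fold change 0.81 ± 0.07 SE, edgeR adjusted p = 1.58e-08).

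The order of the lines changed in myotubes, where the control reached 64.3, 62.6 and 56.4 CPM, the overexpressor stood at 11.0, 10.9 and 11.1 and the knockout at 18.9, 18.8 and 17. Again no libraries of different lines overlapped. The control was above the overexpressor by 5.54-fold (log2 fold change -2.47 ± 0.07 SE, edgeR adjusted p = 5.73e-15) and above the knockout by 3.35-fold (log2 fold change -1.74 ± 0.07 SE, edgeR adjusted p = 3.09e-13). Snhg12 was also lower in overexpressor than in knockout myotubes by 1.65-fold (log2 fold change -0.73 ± 0.07 SE, edgeR adjusted p = 1.07e-07).

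During differentiation Snhg12 rose in the control by 4.27-fold (log2 fold change 2.10 ± 0.07 SE, edgeR adjusted p = 2.10e-14). In the overexpressor it differed by -0.05 ± 0.07 SE (edgeR adjusted p = 0.547), and in the knockout it fell by 1.37-fold (log2 fold change -0.46 ± 0.07 SE, edgeR adjusted p = 1.43e-05). The response minus that of the control was -2.15 ± 0.10 SE in the overexpressor (edgeR adjusted p = 1.06e-11) and -2.55 ± 0.10 SE in the knockout (edgeR adjusted p = 1.10e-12). From high to low the groups ran control myotubes, knockout myoblasts, knockout myotubes, control myoblasts, overexpressor myoblasts and overexpressor myotubes, and no neighbours in this order overlapped, although the difference between overexpressor myoblasts and myotubes did not pass the test. Every call named for Snhg12 was kept with each single library left out.

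The pattern most like that of Snhg12 over the 18 libraries belonged to Zfas1, another snoRNA host (r = 0.979), followed by Shmt2, the mitochondrial serine hydroxymethyltransferase (r = 0.969). In the order control, overexpressor and knockout, Zfas1 (mean ± SD, n = 3) was at 52.1 ± 1.61, 37.0 ± 1.44 and 82.2 ± 5.33 CPM in myoblasts and 136 ± 5.28, 42.7 ± 1.27 and 64.3 ± 4.24 in myotubes. Shmt2 was at 166 ± 12.8, 165 ± 13.8 and 284 ± 3.96 CPM in myoblasts and 655 ± 51.1, 174 ± 20.4 and 267 ± 25.8 in myotubes in the same order. As for Snhg12, the highest levels of both were in control myotubes. Trnau1ap, the protein gene 738 bases from Snhg12 on the opposite strand, was at 30.6 ± 1.3 CPM in control myoblasts and 39.2 ± 3.52 in control myotubes, a smaller difference (0.36, edgeR adjusted p = 0.00140). The 5 snoRNA gene annotations on the same strand that overlap it share exonic bases with Snhg12, so how their reads were assigned is uncertain.

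**Figure D5:**
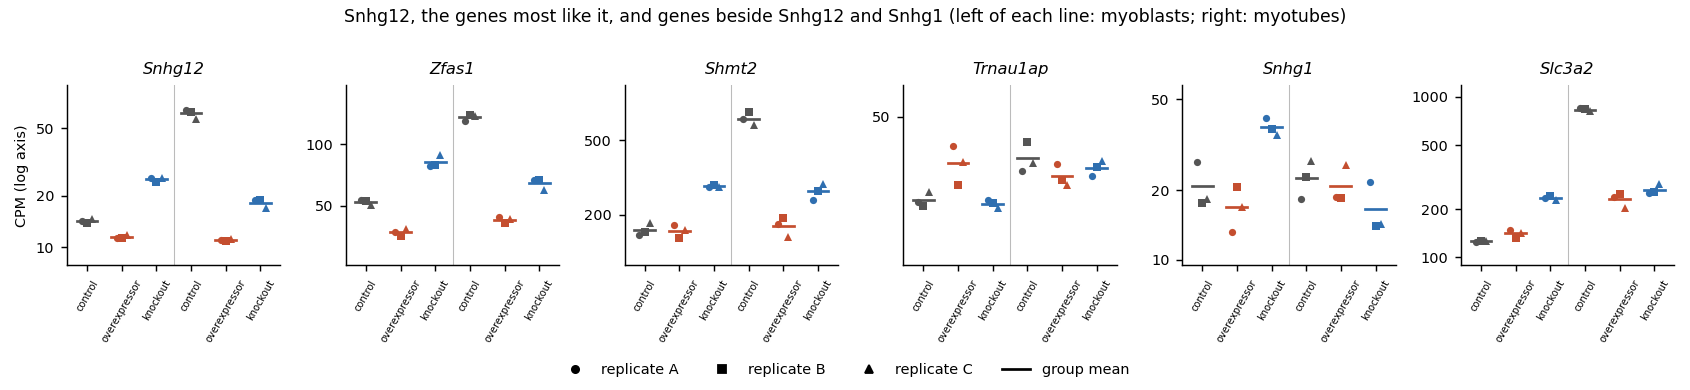
CPM on log axes in every library for Snhg12, the 2 genes most like it (Zfas1 and Shmt2), its neighbour Trnau1ap, and Snhg1 with its neighbour Slc3a2, with replicate letters as point shapes, lines at group means and myotubes to the right of each vertical line. Control myotubes hold the highest Snhg12, Zfas1, Shmt2 and Slc3a2 values, while the highest Snhg1 values are in knockout myoblasts.

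Gas5 (chr1:161034422-161038539, plus strand), named for its rise in growth-arrested cells, hosts a series of box C/D snoRNAs. Its levels in myoblasts were 44.5, 31.1 and 32.9 CPM in the control, 21.3, 29.5 and 27.4 for the overexpressor and 67.6, 67.6 and 58.8 for the knockout. The 3 lines did not overlap. Gas5 was higher in knockout than in control myoblasts by 1.79-fold (log2 fold change 0.84 ± 0.21 SE, edgeR adjusted p = 0.00312), and the overexpressor differed from the control by -0.47 ± 0.21 SE (edgeR adjusted p = 0.0867). DESeq2's Wald test called that second difference lower (adjusted p = 0.0286), as did edgeR with only these groups fitted (0.0341). Between the clones, Gas5 was lower in the overexpressor by 2.48-fold (log2 fold change -1.31 ± 0.21 SE, edgeR adjusted p = 7.81e-05).

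Myotubes of the control had 59.6, 58.5 and 72.1 CPM, those of the overexpressor 29.6, 28.0 and 44.8 and those of the knockout 43.5, 29.1 and 28.2. Every control library was above both clones. Gas5 was lower by 1.86-fold (log2 fold change -0.89 ± 0.21 SE, edgeR adjusted p = 0.00170) for the overexpressor and by 1.89-fold (log2 fold change -0.92 ± 0.21 SE, edgeR adjusted p = 0.00118) for the knockout. It rose on differentiation in the control by 1.75-fold (log2 fold change 0.81 ± 0.21 SE, edgeR adjusted p = 0.00314) and fell in the knockout by 1.92-fold (log2 fold change -0.94 ± 0.21 SE, edgeR adjusted p = 0.00104), with 0.39 ± 0.21 SE (edgeR adjusted p = 0.117) in the overexpressor. That last difference passed with DESeq2's Wald test (0.0199) and size factors (0.0434). The knockout response minus the control response was -1.75 ± 0.29 SE (edgeR adjusted p = 1.70e-04). Knockout myoblasts and control myotubes were the highest groups and overlapped, and the other groups overlapped in turn below them. Gtpbp10, a mitochondrial ribosome assembly GTPase gene (r = 0.947), and Wdr43, a gene of ribosomal RNA processing (r = 0.941), had the most like patterns.

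Snhg1 (chr19:8723475-8726443, plus strand) hosts a further series of C/D snoRNAs. Myoblasts had 26.5, 17.7 and 18.3 CPM in the vector control, 13.2, 20.7 and 17 in line 2-4 (overexpressor) and 41.1, 37.1 and 35.0 in line 2-7 (knockout). Only the knockout was clear of the others. Snhg1 was higher in knockout than in control myoblasts by 1.81-fold (log2 fold change 0.86 ± 0.22 SE, edgeR adjusted p = 0.00364), and lower in overexpressor than in knockout myoblasts by 2.23-fold (log2 fold change -1.15 ± 0.22 SE, edgeR adjusted p = 3.50e-04). In myotubes all 3 lines overlapped, at 18.3, 22.8 and 26.8 CPM in the control, 18.7, 18.6 and 25.7 for the overexpressor and 21.7, 14.1 and 14.2 for the knockout. The knockout difference from control myotubes was -0.44 ± 0.22 SE (edgeR adjusted p = 0.0838), and it passed without control A (adjusted p = 0.0434) or knockout A (0.0142). Without knockout A the clones also differed in myotubes (0.57, adjusted p = 0.0382).

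On differentiation Snhg1 fell in the knockout by 2.26-fold (log2 fold change -1.18 ± 0.22 SE, edgeR adjusted p = 2.37e-04), and this response minus that of the control was -1.30 ± 0.31 SE (edgeR adjusted p = 0.00267). The control difference was 0.12 ± 0.22 SE (edgeR adjusted p = 0.648). Slc3a2, the heavy chain of amino acid transporters, lies 105 bases from Snhg1 on the opposite strand. Its pattern differed from that of Snhg1 in myotubes. Slc3a2 was at 126 ± 1.27 CPM in control myoblasts (mean ± SD, n = 3) and 830.5 ± 16.4 in control myotubes. Overexpressor myotubes had 229.7 ± 22.8 and knockout myotubes 264 ± 19.1. Slc3a2 rose 6.58-fold (log2 fold change 2.72 ± 0.08 SE, edgeR adjusted p = 2.34e-15) in the control. Among myoblasts both genes were highest in the knockout, with Slc3a2 at 235, 242 and 226 CPM in libraries A, B and C. Overexpressor myoblasts had 149, 131 and 143 CPM of Slc3a2, above its control libraries (125, 127 and 127), whereas their Snhg1 levels overlapped the control. Cnbp (r = 0.924) and Nudcd2 (r = 0.919) had the patterns most like Snhg1.

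Other snoRNA host genes gave the wider view. Of 17 listed, 13 could be tested. In knockout myoblasts 9 were higher and 1 lower than in the control (median 0.57 beside 0.02 over all genes, of which 53.0% were called), led by Snhg15 (1.05, edgeR adjusted p = 1.60e-09). On differentiation of the knockout, whose myotube libraries A and C stood apart in these hosts, 9 were lower and 0 higher (median -0.38 beside -0.08, with 65.4% of all genes called), with Dancr the lowest (-1.25, edgeR adjusted p = 7.24e-05). In the control 6 were higher and 3 lower, against 62.8% of all genes called, or 4 and 3 when scaled by library totals. The called hosts ran from Zfas1 (1.38) to Snhg3 (-1.5). Snhg18 was the 1 host called lower in knockout myoblasts (-0.59, edgeR adjusted p = 7.61e-04). In overexpressor myoblasts 4 hosts were lower and 0 higher, where 40.4% of all genes were called and 19.7% were lower. Snhg18 was the lowest of these hosts, at 2.11 ± 0.488 CPM against 14.6 ± 0.455 in the control (n = 3). Of 12 genes for core proteins of snoRNA particles, 6 were higher and 1 lower in knockout myoblasts (median 0.20 beside 0.02), a share near the 53.0% of all genes called there, and Nop58, a scaffold of C/D particles, was the highest (0.91, edgeR adjusted p = 0.00834). Spliced snoRNA hosts are targets of nonsense-mediated decay, and of 14 genes for its factors 4 were higher and 1 lower there, and 4 higher and 7 lower in knockout myotubes than in knockout myoblasts. With DESeq2 size factors the last split was 5 higher and 4 lower. Of all genes 53.0% were called in the first of these comparisons and 65.4% in the second.

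Mir22hg (chr11:75461539-75466676, plus strand) carries miR-22, a microRNA abundant in striated muscle. In myoblasts it was at 25.8, 19.6 and 18.1 CPM in the control, 16.0, 28.0 and 21.2 for the overexpressor and 38.5, 38.8 and 37.8 for the knockout. Knockout libraries were above the other lines, which overlapped. Mir22hg was higher in knockout than in control myoblasts by 1.81-fold (log2 fold change 0.86 ± 0.19 SE, edgeR adjusted p = 0.00116) and lower in overexpressor than in knockout myoblasts by 1.77-fold (log2 fold change -0.82 ± 0.19 SE, edgeR adjusted p = 0.00160). The overexpressor difference from the control was 0.04 ± 0.19 SE (edgeR adjusted p = 0.913).

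Control myotubes reached 47.2, 47.8 and 48.6 CPM, overexpressor myotubes 50.1, 58.5 and 72.8 and knockout myotubes 30.5, 24.7 and 21.5. No libraries of the 3 lines overlapped. The knockout was lower than the control by 1.87-fold (log2 fold change -0.91 ± 0.19 SE, edgeR adjusted p = 4.99e-04) and the overexpressor was above the knockout by 2.37-fold (log2 fold change 1.24 ± 0.19 SE, edgeR adjusted p = 4.29e-05). Against the control, the overexpressor difference of 0.34 ± 0.18 SE (edgeR adjusted p = 0.132) did not pass, but did when scaled by DESeq2 size factors (adjusted p = 0.0334) or by library totals (0.0457), with DESeq2's Wald test (0.0187) and with only these groups fitted (0.0231).

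Mir22hg rose on differentiation by 2.26-fold (log2 fold change 1.18 ± 0.19 SE, edgeR adjusted p = 4.98e-05) in the control and by 2.78-fold (log2 fold change 1.48 ± 0.19 SE, edgeR adjusted p = 4.38e-06) in the overexpressor. In the knockout it fell by 1.5-fold (log2 fold change -0.58 ± 0.19 SE, edgeR adjusted p = 0.0123), a call lost without myotube C (adjusted p = 0.0645). The knockout response minus the control response was -1.76 ± 0.26 SE (edgeR adjusted p = 5.37e-05), and the overexpressor response differed from it by 0.30 ± 0.26 SE (edgeR adjusted p = 0.411). The host overlaps the coding gene Tlcd2 by 206 exonic bases on the same strand, and Tlcd2 was at 2.10 ± 0.103 CPM in control myoblasts and 2.49 ± 0.167 in control myotubes, far below the host. Rpl36a-ps3, a ribosomal protein pseudogene whose reads may belong to its parent gene (r = 0.970), and Cnot6l, a deadenylase subunit gene (r = 0.959), had the most like patterns.

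Mir17hg (chr14:115042879-115046727, plus strand) carries the miR-17-92 cluster, known for promoting proliferation and as a target of Myc. It was scarce, at 2.83, 1.42 and 1.83 CPM in myoblasts of the control, 1.36, 2.01 and 1.04 in those of the overexpressor and 4.13, 3.39 and 3.29 in those of the knockout. Knockout libraries were above all others. The knockout difference from the control was 0.83 ± 0.42 SE (edgeR adjusted p = 0.117), and with only these 2 groups in the fit it passed (adjusted p = 0.00315). Mir17hg was lower in overexpressor than in knockout myoblasts by 2.45-fold (log2 fold change -1.29 ± 0.44 SE, edgeR adjusted p = 0.0215), a call lost without knockout A (0.0625), overexpressor A (0.0661) or overexpressor C (0.0858) and without the filter on low counts (0.0595).

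Myotube levels of Mir17hg were 0.549, 1.10 and 1.53 CPM in the control, 0.549, 0.913 and 2.10 for the overexpressor and 1.4, 0.870 and 0.648 for the knockout, and the 3 lines overlapped. On differentiation it fell in the knockout by 3.66-fold (log2 fold change -1.87 ± 0.45 SE, edgeR adjusted p = 0.00189). The control difference was -0.93 ± 0.46 SE (edgeR adjusted p = 0.0902), and without myotube C it was -1.3, adjusted p = 0.0456. It also passed with DESeq2's Wald test (0.0299), library totals (0.0391) or only these groups fitted (0.0369). Myc was at 46.0 ± 1.30 CPM in control myoblasts (mean ± SD, n = 3), 23.9 ± 0.973 and 62.7 ± 3.66 in those of the overexpressor and the knockout, and 94.2 ± 1.67 in control myotubes. Among myoblasts the means of Myc and Mir17hg ran in the same order, lowest in the overexpressor and highest in the knockout. The highest group mean of Myc was in control myotubes, where Mir17hg had a mean of 1.06 CPM. A link between them was not tested. Summed over 5 genes, proliferation markers were lower in myotubes of every line, from at least 801 CPM in any myoblast library to at most 212 in any myotube library, beside the levels of Mir17hg, and their part was not tested. N4bp2 (r = 0.943) and Lyar, a nucleolar protein gene (r = 0.915), had the most like patterns.

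Mir99ahg (chr16:77236317-77773427, plus strand) spans 537111 bases and holds miR-99a, let-7c and miR-125b in its introns. Its myoblast levels were 2.00, 1.21 and 1.14 CPM in the control, 1.4, 2.98 and 3.44 for the overexpressor and 2.28, 2.15 and 1.98 for the knockout. These groups overlapped, and the differences from the control were 0.83 ± 0.41 SE (edgeR adjusted p = 0.127) and 0.55 ± 0.41 SE (edgeR adjusted p = 0.286). Without overexpressor A the first became 1.14, adjusted p = 0.0380, and the second passed with only these groups fitted (0.0229). In myotubes there were 0.834, 1.35 and 1.24 CPM in the control, 1.37, 1.53 and 4.35 for the overexpressor and 1.98, 1.74 and 1.74 for the knockout. Both clones lay above the control, the overexpressor by a narrow gap.

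Mir99ahg was higher in overexpressor than in control myotubes by 2.12-fold (log2 fold change 1.08 ± 0.41 SE, edgeR adjusted p = 0.0356). This rested on overexpressor C, without which the log2 fold change was 0.45, adjusted p = 0.221, and the call was also lost without control A (adjusted p = 0.130), control B (0.0511) or control C (0.0664). It was lost as well without the filter on low counts (0.0878) and with only these groups fitted (0.0954). The knockout difference was 0.68 ± 0.43 SE (edgeR adjusted p = 0.171), and it was called higher with DESeq2's Wald test (adjusted p = 0.0439) and with only these groups fitted (0.0106). Differentiation gave -0.36 ± 0.44 SE (edgeR adjusted p = 0.496) in the control, -0.10 ± 0.39 SE (edgeR adjusted p = 0.834) for the overexpressor and -0.23 ± 0.40 SE (edgeR adjusted p = 0.637) for the knockout, the second of which was -0.79, adjusted p = 0.0242 without myotube C. In the order of mean levels all neighbouring groups overlapped. Likeness was weakest for this RNA, with Ormdl1 (r = 0.785) and Zfp979 (r = 0.781) first.

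Dnm3os (chr1:162217623-162225550, plus strand) is transcribed against Dnm3, the dynamin 3 gene, and carries miR-199a and miR-214, known from mesenchymal and skeletal development. Myoblast levels were 35.4, 16.9 and 16.6 CPM in the control, 11.0, 21.3 and 18 for the overexpressor and 29.6, 27.3 and 24.3 for the knockout. Control A was above every other myoblast library, the control overlapped both clones, and the overexpressor lay below the knockout. That difference between the clones was -0.69 ± 0.39 SE (edgeR adjusted p = 0.152), and it passed with only these 2 groups fitted (adjusted p = 0.00672). In myotubes the control had 8.54, 8.83 and 11.3 CPM, the overexpressor 8.20, 12 and 22.2 and the knockout 8.06, 4.59 and 3.74. The knockout was below both other lines. Dnm3os was higher in overexpressor than in knockout myotubes by 2.58-fold (log2 fold change 1.37 ± 0.40 SE, edgeR adjusted p = 0.00924), lost without overexpressor C (adjusted p = 0.0582) or knockout C (0.0502). Against control myotubes the knockout difference was -0.80 ± 0.40 SE (edgeR adjusted p = 0.0918), and without knockout A it was -1.19, adjusted p = 0.0332. With only these groups fitted it passed too (0.0202).

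Dnm3os fell on differentiation in the control by 2.40-fold (log2 fold change -1.27 ± 0.39 SE, edgeR adjusted p = 0.0116) and in the knockout by 4.93-fold (log2 fold change -2.30 ± 0.41 SE, edgeR adjusted p = 1.87e-04). The control call rested on myoblast A, without which the log2 fold change was -0.81, adjusted p = 0.0856. In the overexpressor the difference was -0.24 ± 0.39 SE (edgeR adjusted p = 0.604). Between the knockout and control responses it was -1.04 ± 0.56 SE (edgeR adjusted p = 0.137), and -1.49, adjusted p = 0.0332 without control myoblast A. Dnm3 had another pattern, at 2.06 ± 0.271 CPM in control myoblasts, 2.20 ± 0.0422 in control myotubes, 4.51 ± 0.290 in knockout myoblasts and 8.64 ± 0.640 in knockout myotubes (n = 3), where Dnm3os was lowest. Use of strand in counting is not given in the sources used here, so reads of the pair may not be fully told apart, although they share no exonic bases. Pms1, a mismatch repair gene (r = 0.960), and Srsf3 (r = 0.955) had the most like patterns. Twist1, described as an activator of Dnm3os, had 0 counts in every library.

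Of 9 other long noncoding hosts of microRNAs, 4 could be tested. Mir133a-1hg, host of a muscle-specific microRNA, had 0 counts in control and overexpressor myoblasts and 0.282 ± 0.0621 CPM in knockout myoblasts, and reached 0.156 ± 0.0716, 0.631 ± 0.187 and 1.24 ± 0.0698 CPM in control, overexpressor and knockout myotubes (n = 3). In knockout myoblasts 2 of the 4 were higher and 2 lower than in the control, where 53.0% of all genes were called. Of 17 genes of the microRNA pathway, 11 were lower and 3 higher on differentiation of the knockout, beside 6 and 4 in the control, where 65.4% and 62.8% of all genes were called. Their medians were -0.35 and 0, beside -0.08 and 0.07 over all genes. Lin28b, which blocks let-7 maturation, was at 1.53 ± 0.212 CPM in knockout myoblasts and 0 counts in control and overexpressor myoblasts. Mir99ahg, the host of let-7c, showed no called difference between these myoblasts in the main fit. Mature let-7c was not measured, so these levels do not bear on its maturation.

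Dubr (chr16:50719294-50732773, minus strand) was described as a promoter of myogenic differentiation through Dppa2. Control myoblasts had 17, 15.2 and 16.8 CPM, those of the overexpressor 16.9, 18.7 and 17.6 and those of the knockout 14.6, 14.5 and 13.9. The knockout was below both other lines, by small margins. Its difference from the control was -0.19 ± 0.12 SE (edgeR adjusted p = 0.191), which passed with only these groups fitted (adjusted p = 0.0208). Dubr was higher in overexpressor than in knockout myoblasts by 1.24-fold (log2 fold change 0.31 ± 0.12 SE, edgeR adjusted p = 0.0333), and this was lost on leaving out any knockout library or overexpressor B or C (adjusted p from 0.0622 to 0.0985), with library totals (0.0513) and without the filter on low counts (0.0717).

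In myotubes Dubr was at 9.17, 9.64 and 11.3 CPM in the control, 8.67, 9.14 and 12 for the overexpressor and 8.09, 7.20 and 6.65 for the knockout. The knockout lay below both other lines, which overlapped. It was lower than the control by 1.37-fold (log2 fold change -0.46 ± 0.12 SE, edgeR adjusted p = 0.00251), and the overexpressor was above the knockout by 1.36-fold (log2 fold change 0.44 ± 0.12 SE, edgeR adjusted p = 0.00371). Dubr fell on differentiation in every line, by 1.63-fold (log2 fold change -0.70 ± 0.12 SE, edgeR adjusted p = 4.16e-05) in the control, 1.78-fold (log2 fold change -0.83 ± 0.12 SE, edgeR adjusted p = 4.92e-06) for the overexpressor and 1.96-fold (log2 fold change -0.97 ± 0.12 SE, edgeR adjusted p = 1.28e-06) for the knockout. All myotube libraries were below all myoblast libraries. The responses of the clones differed from that of the control by -0.13 ± 0.16 SE (edgeR adjusted p = 0.574) and -0.27 ± 0.17 SE (edgeR adjusted p = 0.187).

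Dppa2 was at 1.28 ± 0.215 CPM in knockout myoblasts and 1.80 ± 0.303 in knockout myotubes, where Dubr was lowest, and at 0.316 ± 0.0564 in control myotubes (mean ± SD, n = 3), with at most 5 counts in any control or overexpressor myoblast library. Dnmt1, the maintenance DNA methyltransferase, fell in every line on differentiation, from 267 ± 19.1 to 46.9 ± 0.784 CPM in the control (-2.51, edgeR adjusted p = 9.17e-15). The genes most like Dubr were Fam111a, a replication-linked protease gene (r = 0.990), and Cntrl, a centrosome protein gene (r = 0.986). Fam111a was at 73.3 ± 4.94 CPM in control myoblasts and 21.2 ± 3.57 in control myotubes. These are correlations over 18 libraries that share 6 groups, given as a description.

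Coding genes next to the RNAs of the list, or overlapping one, were measured as well. On differentiation of the control, Wdr74 (1.24) rose and Rab42 (-2.54), Tpm3-rs7 (-0.28), Prpf8 (-0.43) and Mettl13 (-0.22) fell, in log2 fold change by edgeR at an adjusted p under 0.05. Zbtb37 (0.27), Wdr81 (-0.05), Usp25 (-0.24), Cxadr (-0.58) and Cblb (0.06) did not pass. Rab42, 5237 bases from Snhg12, thus fell where Snhg12 rose, and Wdr74, 9383 bases from Snhg1, rose where Snhg1 showed no called change. Cxadr, a cell adhesion receptor gene 528061 bases beyond Mir99ahg, was higher in overexpressor than in control myotubes by 2.43-fold (log2 fold change 1.28 ± 0.27 SE, edgeR adjusted p = 4.37e-04). Mir99ahg was also called higher there, but that call was lost without overexpressor C or without any single control library. Serpinc1, Gpc5, Gm11146, 4930558K02Rik and Ccdc54 were too low to be tested.

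Among 13 tested of 17 other well-studied long noncoding RNAs, 8 were lower and 2 higher on differentiation of the knockout, with a median of -0.58 beside -0.08 over all genes, of which 65.4% were called. In the control 4 were higher and 2 lower, against 62.8% of all genes, or 2 and 2 when scaled by library totals. Trp53cor1, known as a target of p53, led the higher ones in both lines: in the order control, overexpressor and knockout it was at 1.35 ± 0.127, 3.86 ± 0.0986 and 5.76 ± 1.04 CPM in myoblasts and 8.62 ± 0.0203, 9.06 ± 0.133 and 10.8 ± 1.13 in myotubes (mean ± SD, n = 3). Of the 7 factors described for single RNAs of the list (Myc, Mycn, Twist1, Dppa2 and 3 DNA methyltransferases), 6 could be tested. On differentiation of the control 3 were higher and 3 lower, against 62.8% of all genes called.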

How the data were processed

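The deposited values are whole-number counts of reads per Ensembl mouse gene, which the authors made from polyA RNA libraries of C2C12 cells. The submitters' processing notes name STAR 2.7.9a, featureCounts, Subread 2.0.3, FastQC 0.11.7, DESeq2 1.32.0 and the build mm10, without their roles. The annotation release, the use of strand and the treatment of reads with several matches are not given in the sources used here, so reads shared with overlapping snoRNA, microRNA and antisense genes are uncertain. A deposited table of transformed values was not used.

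Gene IDs were matched to GENCODE M21 on GRCm38 (55104 matched, 346 did not). Counts of all 18 libraries entered 1 edgeR 4.0.16 quasi-likelihood fit (R 4.3.3) with 6 group coefficients, TMM factors (0.895 to 1.08), filterByExpr and robust dispersions, leaving 12 residual degrees of freedom. The 11 contrasts were adjusted by Benjamini-Hochberg over 17912 genes at 0.05, and every adjusted p given is from this edgeR fit or the named alternative. CPM used TMM-scaled library sizes, and likeness was Pearson r on log2 CPM with a prior count of 2. Levels per length used the union of annotated exons. The script was tested on simulated data. Alternatives were DESeq2 1.42.0 (Wald test, size factors), library totals, no filter, only the groups compared, a replicate block, and each library left out. A further one, leaving out several libraries at once, was run and dropped because those libraries had been picked by the levels of the listed RNAs themselves.

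The 10 RNAs and the gene lists were chosen with earlier results of these data known. Genes named are the 10 RNAs, their nearest and overlapping coding genes, the 2 genes most like each, the highest and lowest called gene of each list in a comparison, and the factors described for single RNAs. The search for like genes left out the 10 RNAs themselves, the genes overlapping the RNA in question, and predicted Gm and Rik genes. Some neighbouring genes are not reported here. Levels of Snhg18, Trp53cor1, Taf15, Lin28b and Mir133a-1hg were chosen for display after their values were seen, and the lists cover snoRNA hosts, microRNA hosts, other long noncoding RNAs, paraspeckle, speckle, snoRNA particle, microRNA pathway and decay proteins and factors for single RNAs.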

Additional observations from a re-analysis of the deposited data

Results flagged for a closer look

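For these RNAs the change between myoblasts and myotubes differed between a clone and the control, by the interaction term of the edgeR fit, with p adjusted over all genes. Snhg12 differed in both clones. Its difference of responses in log2 was -2.15 ± 0.10 SE, adjusted p = 1.06e-11, in the overexpressor, and -2.55 ± 0.10 SE, adjusted p = 1.10e-12, in the knockout. In the knockout the difference was -2.0 ± 0.62 SE, adjusted p = 0.0155, for Malat1. It was -1.75 ± 0.29 SE, adjusted p = 1.70e-04, for Gas5, and -1.30 ± 0.31 SE, adjusted p = 0.00267, for Snhg1. For Mir22hg it was -1.76 ± 0.26 SE, adjusted p = 5.37e-05. Each clone is a single line and shares the control libraries with the other, and 3 libraries stand behind each mean.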

How the results depend on the processing

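No called difference among the 10 RNAs reversed its direction under any setting tried. Over all comparisons, 608 values under the other settings kept their direction and side of the threshold, 20 reversed, 13 lost and 19 gained a call, and with 1 library left out 701 kept both, 37 reversed, 33 lost and 9 gained a call. All reversals were of log2 fold changes that had not passed the test, and the cause was not tested. Scaled by library totals, the sign turned for Mir22hg in overexpressor against control myoblasts (-0.0037), Malat1 in overexpressor against control myotubes (0.062), Snhg1 in overexpressor against control myotubes (0.033), Dubr in overexpressor against control myotubes (0.13), Snhg1 in control differentiation (-0.12), Neat1 in knockout differentiation (-0.070) and Dubr in the overexpressor interaction (0.051). With DESeq2's Wald test, the sign turned for Malat1 in overexpressor against control myotubes (0.017), Dubr in overexpressor against control myotubes (0.094), Mir17hg in knockout against control myotubes (0.0062), Gas5 in overexpressor against knockout myotubes (-0.0017) and Snhg12 in overexpressor differentiation (0.033). With DESeq2 size factors, the sign turned for Malat1 in overexpressor against control myotubes (0.017), Dubr in overexpressor against control myotubes (0.094), Mir17hg in knockout against control myotubes (0.013), Gas5 in overexpressor against knockout myotubes (-0.0020) and Snhg12 in overexpressor differentiation (0.033). With only the groups compared in the fit, the sign turned for Malat1 in overexpressor against control myotubes (0.0100) and Dubr in overexpressor against control myotubes (0.076). Without the filter on low counts, the sign turned for Dubr in overexpressor against control myotubes (0.0020). With each library left out in turn, the ranges that cross 0 were, for overexpressor against control myoblasts, Mir22hg -0.19 to 0.21. For overexpressor against control myotubes, Malat1 -0.50 to 0.14, Snhg1 -0.24 to 0.030, Mir17hg -0.42 to 0.55 and Dubr -0.073 to 0.082. For knockout against control myotubes, Mir17hg -0.47 to 0.27. For overexpressor against knockout myotubes, Neat1 -0.31 to 0.19, Gas5 -0.19 to 0.25, Mir17hg -0.38 to 0.63 and Mir99ahg -0.30 to 0.69. For control differentiation, Snhg1 -0.018 to 0.33. For overexpressor differentiation, Mir17hg -0.95 to 0.031, Mir99ahg -0.79 to 0.18 and Dnm3os -0.68 to 0.034. For knockout differentiation, Neat1 -0.21 to 0.27. For the overexpressor interaction, Neat1 -0.074 to 0.18, Snhg1 -0.021 to 0.36 and Mir99ahg -0.37 to 0.53. For the knockout interaction, Mir99ahg -0.18 to 0.27. The number of the 10 past the threshold was 8 in place of 5 in knockout against control myoblasts with only those groups fitted, and 2 in place of 4 in overexpressor against control myotubes without the filter. With 1 library left out it ranged from 1 to 3 in overexpressor against control myoblasts, from 2 to 3 in overexpressor against control myotubes, from 3 to 6 in overexpressor against knockout myotubes, from 4 to 8 in knockout against control myotubes and from 6 to 8 in knockout differentiation. The first fell to 1 without control myoblasts A or overexpressor myoblasts B, the second to 2 without control myotubes C, and the third to 3 without knockout or overexpressor myotubes C. In overexpressor against knockout myoblasts it was 4 or 5 in place of 6, whichever library was left out. Libraries with the same letter did not deviate together: the 45 correlations between groups ran from -0.36 to 0.26, with a median of -0.016, and in 0 of 15 pairs of groups did every library correlate best with its own letter. A fit with the replicate letter as a block gave 5 in place of 6 calls in knockout against control myotubes, where Neat1 had an adjusted p of 0.0552 by edgeR (log2 fold change -0.52), and changed no other call. Counts as low as 29 limit Mir17hg, and 3 libraries a group limit every comparison.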
